A study of Mus musculus with 12 samples.

Results

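Livers of fasted mice injected with an adenoviral vector for Cre recombinase (Adeno-Cre) were compared with livers of fasted mice injected with a like vector for green fluorescent protein (Adeno-GFP). The members were taken from the sample labels, as the arrays named for either injection and a 24 h fast, and make up 6 of the 12 arrays of the series, 3 for each injection. All mice carried loxP-flanked alleles of Trp53 (the strain Trp53tm1Brn, labelled C57Bl/6N), were male and were 2 months old when the virus was given through the tail vein, with equal titres of the 2 viruses. The fast began 3 days after the injection, and the other 6 arrays come from mice fed freely over the same time. RNA of whole liver was hybridised to Affymetrix arrays, and every value below is a deposited log2 level unless a fold or a difference is named.

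Trp53 encodes p53, a transcription factor that is activated by DNA damage and other stress. It switches on genes that halt the cell cycle, repair DNA or kill the cell, and it restrains genes of cell division indirectly, through its target Cdkn1a (p21) and the repressor complex known as DREAM. In the adult liver most hepatocytes rest outside the cell cycle and can re-enter it after injury, and during a fast the organ releases glucose and ketone bodies made from amino acids, glycerol and fatty acids. Cre recombinase cuts at the loxP sites only in cells that the virus reaches, and the Cre promoter is not given in the sources used here. Trp53 has no probe set that names it alone and was not analysed here, so nothing here shows the deletion itself or the share of cells that carry it.

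All 12 array medians lay between 6.26 and 6.33, but RMA, with which the values were made, equalises the arrays, so these medians do not measure quality. Correlations between arrays of the same group, over 22180 genes, were 0.991 to 0.994. Those between an Adeno-Cre and an Adeno-GFP fasted array were only slightly lower, at 0.9863 to 0.9899. Markers of hepatocytes, the defining cells of the labelled tissue, averaged 12.13 to 12.15 in Adeno-Cre fasted livers and 12.21 to 12.29 in Adeno-GFP fasted livers, on a scale that runs from 1.62 to 13.96. In the fit of limma, a linear model with variances moderated across genes, 609 of 22180 genes passed an adjusted p of 0.05, which is 2.75% of those tested. Of these, 502 genes (2.26%) rose and 107 genes (0.482%) fell after Adeno-Cre. The rises were also larger: 142 of 502 were at least 2-fold and 24 at least 4-fold, whereas 3 of 107 falls were at least 2-fold and 58 of 107 were under 0.5 on the log2 scale. These counts depend on single fasted arrays. With replicate 2 of Adeno-Cre left out, 304 genes rose and 51 fell, and with replicate 3 of Adeno-Cre left out 254 fell. With replicate 2 of Adeno-GFP left out, 334 rose and 51 fell, and the falls numbered 57 and 69 when replicate 1 or replicate 3 of Adeno-GFP was the one removed. All 3 arrays of each group lay apart for many more genes than were called, 2210 higher (9.96%) and 2417 lower (10.9%). At an unadjusted limma p under 0.05, 1780 of the 22180 genes were higher and 1931 lower, together 16.7%. List counts at that threshold below are to be read beside these shares.

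Genes of cell division led the rises. Of 203 measured genes on 10 lists that follow the cell from replication licensing to cytokinesis and repair of replicated DNA, 141 rose and 0 fell in the limma fit, with 171 higher and 3 lower at an unadjusted p under 0.05. Their median log2 change was 0.85, against -0.03 over all genes. The 3 Adeno-Cre arrays lay above the 3 Adeno-GFP arrays for 170 of the 203. These genes made up 141 of the 502 rises and 87 of the 142 rises of at least 2-fold. The mean level of the 203 genes was 7.71, 7.91 and 7.92 in the 3 Adeno-Cre fasted livers and 7.06, 6.66 and 6.89 in the 3 Adeno-GFP fasted livers, so the groups were well apart and the Adeno-GFP arrays were the more spread. In bulk tissue, more dividing cells and more of this RNA per cell cannot be told apart.

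**Figure D1:**
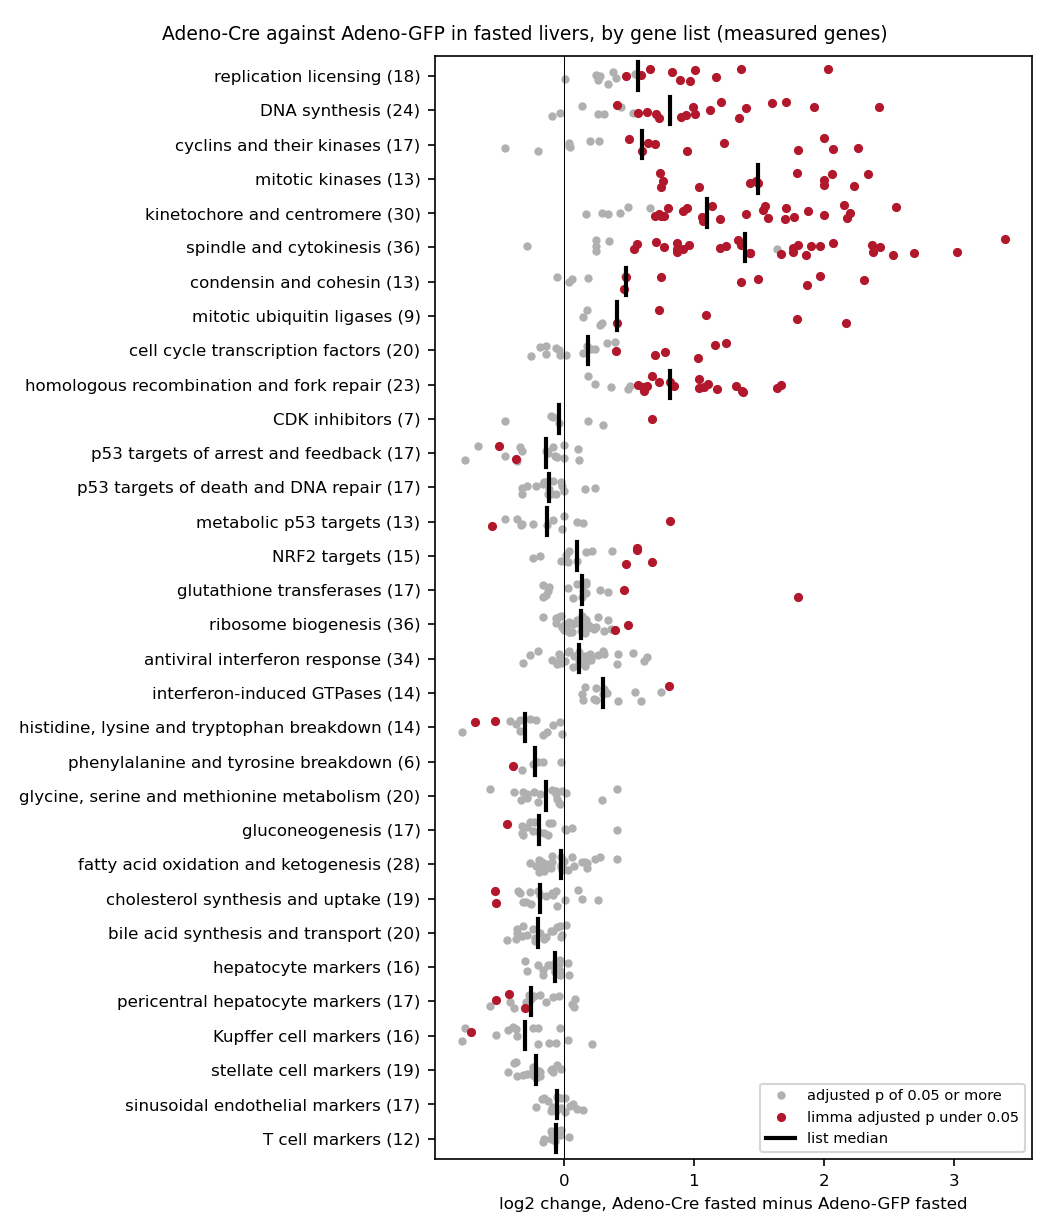
Each point is 1 gene of a list (number measured in brackets), placed by its log2 change in fasted livers, Adeno-Cre minus Adeno-GFP; red points passed a limma adjusted p of 0.05 and black bars are list medians. The 10 division lists at the top are shifted to the right, with medians of 0.19 to 1.49, and the medians of the other lists drawn lie between -0.30 and 0.30. Not all lists are drawn, and of those left out the Gadd45 family, with 2 measured genes, had a median of -0.47.

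The promoters of these genes carry short elements known from the control of the cell cycle. The CHR (cell cycle homology region), bound by DREAM in resting cells and by MuvB complexes with B-Myb or FoxM1 in dividing ones, is found mostly in genes of mitosis, often near a CCAAT box bound by NF-Y. E2F sites are typical of genes of DNA replication. Promoters are shown for the largest rises that met the terms given here, with 1 chromosome left out. The first 3 belong to genes on the lists of mitosis and of cyclins. They hold a CHR no more than 50 bases from the start together with a CCAAT box, with both elements in capitals. The other 2 belong to the replication genes with the largest rises among those with an E2F motif, with that motif in capitals. Each is RefSeq's 300 bases on GRCm38.p6, 250 before the start and 50 from it on, read 5′ to 3′ on the gene's strand.
Depdc1a, chr3:159495183-159495482, plus strand: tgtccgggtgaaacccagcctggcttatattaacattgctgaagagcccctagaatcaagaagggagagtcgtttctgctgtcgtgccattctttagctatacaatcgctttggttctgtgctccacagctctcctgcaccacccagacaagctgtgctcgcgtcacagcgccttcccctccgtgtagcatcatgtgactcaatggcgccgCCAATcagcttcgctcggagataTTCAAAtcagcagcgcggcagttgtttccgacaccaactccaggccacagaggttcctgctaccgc
Ect2, chr3:27153829-27154128, minus strand: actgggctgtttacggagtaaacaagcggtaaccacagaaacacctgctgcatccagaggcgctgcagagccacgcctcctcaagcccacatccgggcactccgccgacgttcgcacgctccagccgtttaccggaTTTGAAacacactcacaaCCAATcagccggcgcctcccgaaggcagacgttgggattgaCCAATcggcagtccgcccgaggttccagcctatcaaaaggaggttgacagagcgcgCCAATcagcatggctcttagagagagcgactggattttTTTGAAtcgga
Hmmr, chr11:40733388-40733687, minus strand: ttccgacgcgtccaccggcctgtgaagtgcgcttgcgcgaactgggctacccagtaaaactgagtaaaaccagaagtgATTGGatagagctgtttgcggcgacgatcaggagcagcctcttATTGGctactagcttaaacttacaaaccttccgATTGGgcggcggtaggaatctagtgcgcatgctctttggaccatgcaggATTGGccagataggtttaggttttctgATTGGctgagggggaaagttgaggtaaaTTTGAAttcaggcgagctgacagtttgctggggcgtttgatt
Pole2, chr12:69228141-69228440, minus strand: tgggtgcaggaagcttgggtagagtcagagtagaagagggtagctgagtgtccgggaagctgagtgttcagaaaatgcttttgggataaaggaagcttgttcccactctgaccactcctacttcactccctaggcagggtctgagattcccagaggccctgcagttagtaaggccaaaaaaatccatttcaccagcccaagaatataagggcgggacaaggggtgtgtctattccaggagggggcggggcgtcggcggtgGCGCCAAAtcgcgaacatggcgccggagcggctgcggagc
Mcm6, chr1:128359656-128359955, minus strand: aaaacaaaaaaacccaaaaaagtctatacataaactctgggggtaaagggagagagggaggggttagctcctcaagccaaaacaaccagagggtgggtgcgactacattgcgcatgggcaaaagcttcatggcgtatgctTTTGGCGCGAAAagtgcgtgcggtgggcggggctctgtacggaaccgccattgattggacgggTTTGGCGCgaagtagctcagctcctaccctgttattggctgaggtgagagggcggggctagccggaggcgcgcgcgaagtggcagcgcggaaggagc
Counting from 0 at the start base, the CHR of Depdc1a begins at position -16 and its CCAAT box at -39. Hmmr holds a CHR beginning at position 8 and CCAAT boxes at -172, -129, -96, -47 and -20. Ect2 holds CHR elements at -114 and 39 and CCAAT boxes at -96, -55 and 1. In Mcm6, E2F motifs at -110 and -106 overlap and another lies at -47, and the single one of Pole2 begins at position 10.

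The same elements were counted in all promoters of the table, which matched 16918 of the genes tested. The CHR was searched as TTTGAA and TTCGAA, the CCAAT box as CCAAT, and E2F as TTTGGCGC, TTTCCCGC, TTTCGCGC and TTTGCCGC, on both strands and with overlapping matches counted. A CHR within 50 bases of the start was present in 60.3% of 68 genes that rose on the lists of mitosis (kinases, kinetochore, spindle, condensin and cohesin, ubiquitin ligases), in 17.4% of 23 genes of replication licensing and DNA synthesis that rose, and in 4.45% of all promoters. A CHR anywhere in the window together with a CCAAT box was present in 51.5% of the mitotic set and in 7.08% of all promoters. The E2F motif was the more frequent in the replication set, at 34.8%, against 11.8% in the mitotic set and 2.91% of all promoters. Over all 10 division lists, a CHR near the start was present in 42.9% of 119 promoters of genes that rose and in 18.4% of 49 promoters of genes that missed the threshold, while the E2F motif was present in 22.7% and 20.4%. A CHR near the start was present in 10.6% of 293 promoters of genes that rose but are on no division list. Among 81 promoters of genes that fell the share with such a CHR was 2.47%, which did not exceed the 4.45% of all promoters. These matches are descriptions of letters in a window and no binding was measured.

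Replication licensing loads and fires the MCM helicase at origins of replication. Of 18 measured genes, 10 rose and 0 fell, with a median change of 0.57. Dbf4, the activating subunit of the kinase that fires origins, had levels of 8.23, 8.44 and 8.64 after Adeno-Cre and 6.56, 6.32 and 6.33 after Adeno-GFP, 2.03 higher (SE 0.14, 4.08-fold). Its limma adjusted p of 0.000148 was the smallest of all 22180 genes. Its catalytic partner Cdc7 had a change of 0.01 (adjusted p = 0.98). The helicase subunit Mcm6 had levels of 9.40, 9.57 and 9.38 in Adeno-Cre livers, against 8.53, 7.13 and 8.62 in Adeno-GFP livers, and its difference of 1.36 had an adjusted p of 0.048. Adeno-GFP replicate 2 lay far below the other arrays, and without it the difference was 0.88. Mcm2, Mcm3, Mcm4, Mcm5 and Mcm7 rose by 0.59 to 1.01, and the helicase cofactors Cdc45 and Gins2 by 0.83 and 1.17. The loading factor Cdt1 (0.28, adjusted p = 0.0893) and its inhibitor Gmnn (0.55, adjusted p = 0.0766) did not pass, although neither pair of groups overlapped. With replicate 2 of Adeno-Cre left out the list held 6 risers. The calls of Mcm6 and Mcm3 were lost on removing any 1 of 9 and of 10 arrays, and that of Mcm4 on removing replicate 1 or 2 of Adeno-Cre fasted.

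Of 24 measured genes of DNA synthesis 17 rose and 0 fell, with a median of 0.82. The ribonucleotide reductase subunit Rrm2, which makes deoxynucleotides in S phase, had levels of 9.44, 9.88 and 9.50 after Adeno-Cre and 7.79, 7.28 and 7.98 after Adeno-GFP. Its log2 change of 1.92 (SE 0.23, adjusted p = 0.000843) stood beside 1.60 for the other subunit Rrm1. Top2a, the topoisomerase that untangles replicated chromosomes, had levels of 9.12, 9.31 and 9.80 in Adeno-Cre livers and 7.58, 6.50 and 6.90 in Adeno-GFP livers, 2.42 higher (SE 0.27). Pcna, the sliding clamp of the polymerases and the brightest of the genes named here, was 10.20, 10.41 and 10.36 against 9.75, 9.56 and 9.76, a smaller difference of 0.64 (SE 0.09, adjusted p = 0.00204) between groups that did not overlap. DNA polymerase epsilon (Pole 1.21, Pole2 1.40), the primase Prim1 (1.71), the ligase Lig1 (1.35) and the thymidylate synthase Tyms (0.99) also rose. Other genes of S phase did not pass, and the change was -0.03 for the thymidine kinase Tk1 (adjusted p = 0.93), 0.14 for the flap endonuclease Fen1 and -0.09 for Pold1. The 2 probe sets of Pole differed in size, 1.21 and 0.45, as did those of Dut, 0.41 and 0.15, and the call of Dut was lost on removing any 1 of 9 arrays.

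Cyclins and their kinases drive the steps of the cycle. Here 10 of 17 measured genes rose and 0 fell, and the members were split by stage. Cdk1, the mitotic kinase, had levels of 8.93, 9.25 and 9.45 in Adeno-Cre livers, against 7.43, 6.46 and 6.95 in Adeno-GFP livers, 2.26 higher (SE 0.22, adjusted p = 0.000325), or 4.80-fold. Its partner Ccna2 (cyclin A2) was 9.32, 9.47 and 9.57 after Adeno-Cre and 8.25, 7.25 and 7.47 after Adeno-GFP, 1.80 higher (SE 0.23). Ccnb2 (cyclin B2) rose by 2.00, and Ccne1 (cyclin E1, which acts at the entry into S phase) by 0.60. The cyclins of G1, which answer growth signals, did not pass, with changes of 0.04 for Ccnd1 (adjusted p = 0.85), 0.05 for Ccnd2 and -0.20 for Ccnd3. Nor did their kinases, with 0.27 for Cdk4 (adjusted p = 0.095) and -0.45 for Cdk6 (adjusted p = 0.0802). Among 7 CDK inhibitors only Cdkn2c (p18), at 7.74, 7.63 and 7.74 against 7.15, 6.80 and 7.11, was called, 0.68 higher (adjusted p = 0.00301).

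The lists of mitotic kinases, of spindle and cytokinesis and of kinetochore and centromere had the largest medians of the 10, and were the largest without each array in turn. The lower group mean lay under the array medians for 6 of 13, 18 of 36 and 15 of 30 of their genes. For replication licensing and DNA synthesis this held for 3 of 18 and 3 of 24. The sizes behind this ranking are thus uncertain. All 13 measured mitotic kinases rose, with a median of 1.49 and with 13 called without each array in turn. The checkpoint kinase Bub1 had levels of 7.91, 8.03 and 8.23 in Adeno-Cre livers and 6.20, 5.18 and 5.77 in Adeno-GFP livers, 2.34 higher (SE 0.23, adjusted p = 0.000382). The Adeno-GFP mean lies under the array medians and is not shown to be above background, so the size of that change is uncertain. Ttk, the master kinase of the spindle checkpoint, rose by 2.23, the centrosome kinases Plk4 and Nek2 by 1.79 and 2.00, Plk1 by 1.48, and the Aurora kinases Aurka and Aurkb by 1.43 and 1.04. Of 30 measured kinetochore and centromere genes, whose products tie chromosomes to microtubules, 24 rose and 0 fell with a median of 1.10. Nuf2, of the Ndc80 complex that grips the microtubule, had levels of 8.67, 8.87 and 9.29 against 7.21, 5.49 and 6.49, 2.55 higher (SE 0.34). Other members of that complex rose with it (Ndc80 1.77, Spc25 1.57, Spc24 0.95), as did its anchor Knl1 (2.20) and the checkpoint protein Mad2l1 (2.15). Cenpm (0.17), Cenpt (0.29) and Zwint (0.34, adjusted p = 0.054) did not pass.

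Proteins of the spindle and of cytokinesis pull the chromosomes apart and divide the cell. Of 36 measured genes 30 rose and 0 fell, with a median of 1.39. Shcbp1, a protein of the midbody between daughter cells, had levels of 8.72, 8.96 and 8.96 after Adeno-Cre and 6.42, 4.71 and 5.34 after Adeno-GFP, 3.39 higher (SE 0.32, adjusted p = 0.00028). Its Adeno-GFP mean of 5.49 lies under the array medians and is not shown to be above background, so the size of this change, and its place among other genes, is uncertain. The same holds for Depdc1a, Hmmr, Cdca8 and Incenp, named next. Ect2, which starts the contractile ring, was 9.37, 9.81 and 10.14 in Adeno-Cre livers, against 7.98, 6.14 and 7.14 in Adeno-GFP livers, 2.69 higher (SE 0.40). The Adeno-GFP levels of both genes were highest in replicate 1 and lowest in replicate 2, an order that many division genes share, while every Adeno-Cre level stood above them. The spindle motor Kif11 rose by 2.38 and the midzone bundler Prc1 by 2.43. Depdc1a, a protein of mitosis, rose by 3.02 and Hmmr, a spindle-associated protein, by 2.53. The actin-binding Anln rose by 1.86, the chromosomal passenger proteins Birc5, Cdca8 and Incenp by 2.07, 1.25 and 0.87, and Racgap1, partner of Ect2, by 0.77. Ckap2 had a change of 1.64 that missed the threshold (adjusted p = 0.0511), and Sapcd2 one of -0.28.

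Condensin packs mitotic chromosomes and cohesin holds sister chromatids together. The condensin subunits Smc2 (8.77, 9.03 and 9.26 against 7.65, 6.71 and 7.09), Smc4, Ncaph and Ncapd2 rose by 1.87, 1.36, 1.97 and 0.75. Of the cohesin ring, Rad21 rose by 0.46, while Smc3 (0.19) and Smc1a (0.06) did not pass. Esco2, which acetylates cohesin in S phase, rose by 2.31. In all, 8 of 13 genes of this list rose and 0 fell. Of 9 measured genes of mitotic ubiquitin ligation 5 rose and 0 fell, led by Ube2c, the conjugating enzyme of the anaphase-promoting complex. Ube2c had levels of 9.12, 9.36 and 9.57 in Adeno-Cre livers and 7.71, 6.79 and 7.06 in Adeno-GFP livers, 2.17 higher (SE 0.22), and the activator Cdc20 rose by 1.79. Mki67, the proliferation marker Ki-67, had levels of 9.12, 9.48 and 9.68 in Adeno-Cre livers, against 8.18, 6.94 and 7.29 in Adeno-GFP livers, a difference of 1.96 (adjusted p = 0.00165).

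**Figure D2:**
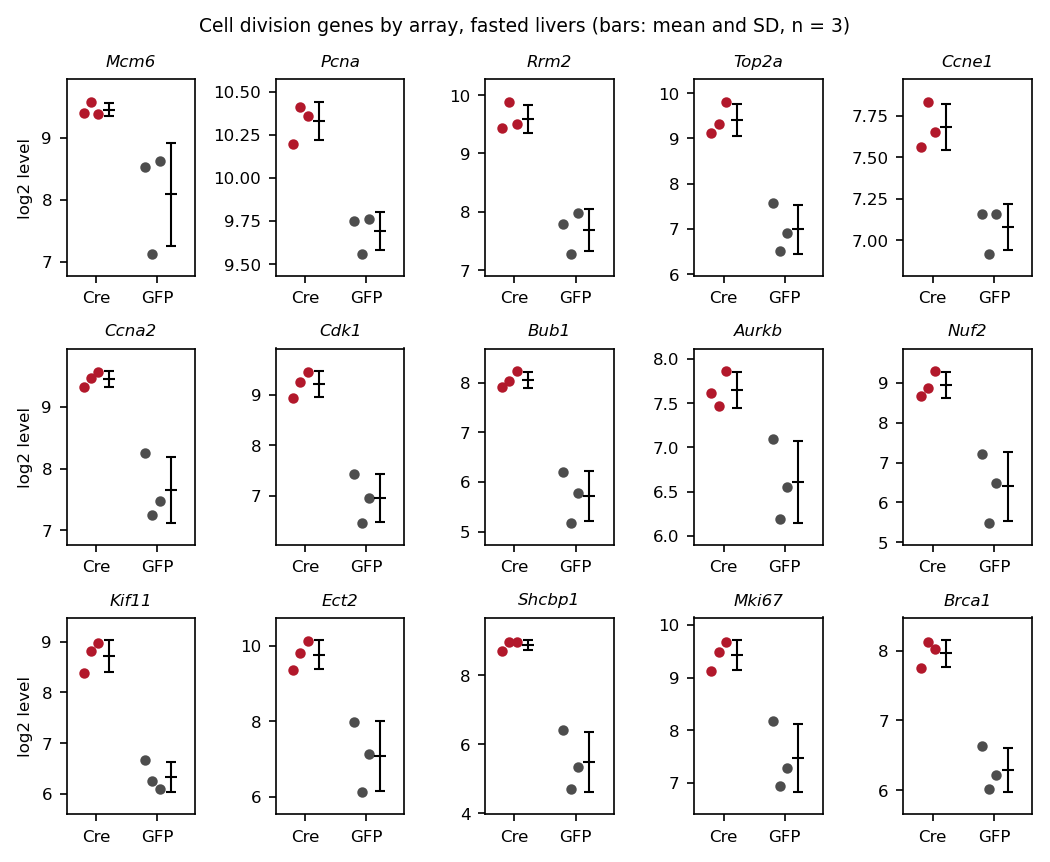
Deposited log2 levels of 15 division genes in each fasted liver (points in order of replicate number, Adeno-Cre left, Adeno-GFP right), with the mean and SD of 3 arrays as bars; each vertical axis has its own range. In every panel the lowest Adeno-Cre point stands above the highest Adeno-GFP point, and the Adeno-GFP points are mostly the more spread.

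Homologous recombination and fork repair act on replicated DNA, and 18 of 23 measured genes rose and 0 fell, with a median of 0.82. Brca1, which directs recombination, had levels of 7.75, 8.12 and 8.02 after Adeno-Cre and 6.63, 6.02 and 6.22 after Adeno-GFP, 1.67 higher (SE 0.17, adjusted p = 0.000433). The helicase Blm rose by 1.38, the checkpoint kinase Chek1 by 1.32, Brca2 by 1.04 and the Fanconi proteins Fanci and Fancd2 by 0.85 and 0.61, the last of them lost on removing any 1 of 4 arrays. Parpbp, which limits recombination, rose by 1.64. Exo1 (0.51, adjusted p = 0.18) and Bard1, the partner of Brca1 (0.49, adjusted p = 0.19), missed the threshold.

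The transcription factors of the cycle had the smallest median change of the 10 lists, 0.19, and 6 of the 20 rose while 0 fell. Lin9, a core subunit of the DREAM and MuvB complexes, had levels of 8.40, 8.80 and 8.44 in Adeno-Cre livers and 7.09, 7.25 and 7.56 in Adeno-GFP livers, 1.25 higher (SE 0.15, adjusted p = 0.000761), and its partner Lin54 rose by 0.40. Rbl1 (p107), a pocket protein that represses E2F genes, rose by 1.16, and the E2F dimerisation partner Tfdp1 by 0.70. The repressors E2f8, at 9.20, 9.87 and 9.50 against 8.35, 8.34 and 8.80, and E2f7 rose by 1.03 and 0.78. The call of E2f8 was lost without Adeno-GFP fasted replicate 2, and that of Lin54 without any 1 of 8 arrays. The activators did not pass: the change was -0.25 for E2f1 (adjusted p = 0.28), 0.33 for Foxm1 (adjusted p = 0.205), -0.14 for Mybl2 (B-Myb), and -0.18 for Myc. Their RNA levels do not measure the activity of the proteins.

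Of the 502 genes that rose, 343 are on none of the lists examined. Among them, Cip2a, an inhibitor of a phosphatase that acts in mitosis, rose by 2.17 and Prr11, a cell cycle protein, by 2.14. Other such genes were chosen after their values were seen: the chromatin remodeller Hells (1.92), the histone methyltransferase Ezh2 (0.98), the chromatin protein Hmgb2 (0.97), and the tubulin regulator Stmn1 (1.16). For 4 of the other rises the RefSeq gene table places a division gene that also rose over the same stretch, so their probe sets may share a transcript. These were Pmch (2.25, overlapping Parpbp), the stellate matrix gene Aspn (1.38, overlapping Cenpp), Mospd2 (0.53, overlapping Fancb) and Ppwd1 (0.33, overlapping Cenpk), the last of them lost on removing any 1 of 10 arrays. Pmch encodes a neuropeptide precursor of the hypothalamus, and its own RNA cannot be told apart from that of Parpbp here.

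Most p53 targets were not called, where 0.482% of all genes fell and 2.26% rose. Changes lay above 0 for 3 of 17 targets of arrest and feedback, 2 of 17 of death and DNA repair and 4 of 13 metabolic ones. Over all genes this held for 9228 of 22180. Of 17 measured targets of arrest and feedback 2 fell and 0 rose in the limma fit. At an unadjusted p under 0.05, 5 were lower and 0 higher, beside 1931 and 1780 of all 22180 genes. The list median was -0.14. With replicate 1 of Adeno-GFP fasted removed this was -0.09, and with replicate 2 removed -0.24. Ccng1 (cyclin G1) had levels of 10.62, 10.54 and 10.40 in Adeno-Cre livers, against 11.12, 10.90 and 11.05 in Adeno-GFP livers, and fell by 0.50 (SE 0.09, adjusted p = 0.00986). Sesn1, a regulator of growth signalling, fell by 0.37 (adjusted p = 0.0439), a call lost without any 1 of 11 arrays. Cdkn1a was 7.71, 8.24 and 8.14 after Adeno-Cre and 9.40, 7.65 and 8.39 after Adeno-GFP. Its Adeno-GFP levels spanned the Adeno-Cre ones, and its change of -0.45 (SE 0.33) did not pass (adjusted p = 0.536). Mdm2, the ligase that degrades p53, had a change of -0.08 (adjusted p = 0.688), and the stress gene Trp53inp1, with groups that did not overlap, one of -0.66 (adjusted p = 0.324).

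Of 17 targets of death and DNA repair 0 were called in the limma fit and 3 were lower and 0 higher at an unadjusted p under 0.05, with a median of -0.11 (-0.07 without Adeno-GFP fasted replicate 3). Changes were -0.14 for the death gene Bbc3 (Puma), -0.15 for Pmaip1 (Noxa), -0.11 for the death receptor Fas and -0.32 for Eda2r (adjusted p = 0.438). Of 13 metabolic targets 1 rose and 1 fell. Dcxr, a carbonyl reductase of sugar metabolism, had levels of 8.62, 8.58 and 8.68 in Adeno-Cre livers and 9.27, 9.11 and 9.14 in Adeno-GFP livers and fell by 0.55 (SE 0.08, adjusted p = 0.00352), also without each array in turn. The drug exporter Abcb1a rose by 0.82 (adjusted p = 0.0225), at 8.93, 9.12 and 8.89 against 7.73, 8.50 and 8.25, a call lost without any 1 of 4 arrays. The pantothenate kinase Pank1 had a change of -0.32 (adjusted p = 0.0613) and Tigar, a regulator of glycolysis, one of 0.10. Members of the Gadd45 family of growth arrest genes differed, with 0.08 for Gadd45b and a fall for Gadd45g. Gadd45g had levels of 6.62, 6.46 and 6.44 after Adeno-Cre, against 7.57, 7.26 and 7.73 after Adeno-GFP, and fell by 1.01 (SE 0.12, adjusted p = 0.000761).

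The 107 genes that fell had a median fall of 0.49, and 83 of them are on none of the lists examined. Ces3b, a carboxylesterase, fell most, by 1.21 (SE 0.22, adjusted p = 0.01), with levels of 9.23, 9.73 and 8.84 in Adeno-Cre livers and 10.34, 10.77 and 10.33 in Adeno-GFP livers. The call was lost without Adeno-GFP fasted replicate 2 (adjusted p = 0.0535), and of its relatives Ces3a had a change of -0.25 and Ces2g one of 0.63 (adjusted p = 0.0264, lost on removing any 1 of 4 arrays). C8a, a subunit of the membrane attack complex, was 11.27, 11.08 and 11.07 after Adeno-Cre and 11.77, 11.98 and 11.70 after Adeno-GFP and fell by 0.68 (SE 0.09, adjusted p = 0.00155). Masp1, the protease of the lectin pathway, fell by 0.65, and the mannose-binding lectins Mbl1 and Mbl2 fell by 0.70 and 0.35. The call of Mbl1 was lost without Adeno-GFP fasted replicate 2, and that of Mbl2 on removing any 1 of 10 arrays. The protease inhibitor Serpinf2, the coagulation protein Proz and the carboxypeptidase subunit Cpn2, chosen after their values were seen, fell by 0.56, 0.41 and 0.51, the first of them lost on removing any 1 of 3 arrays.

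Enzymes that break down histidine, lysine and tryptophan lay below 0 as a list. Of 14 measured genes 2 fell and 0 rose, beside 0.482% and 2.26% of all genes. All 14 had negative changes, with a median of -0.30, where 9228 of all 22180 genes had positive ones. For 10 the groups did not overlap and were lower after Adeno-Cre, beside 10.9% of all genes. Aass, the first enzyme of lysine breakdown, had levels of 11.98, 11.83 and 11.84 in Adeno-Cre livers, against 12.42, 12.40 and 12.44 in Adeno-GFP livers, and fell by 0.53 (SE 0.08, adjusted p = 0.00374). Hal, the first enzyme of histidine breakdown, was 11.41, 10.82 and 11.13 after Adeno-Cre and 11.89, 11.80 and 11.72 after Adeno-GFP. It fell by 0.68 (adjusted p = 0.0449), a call lost without any 1 of 9 arrays, and the next enzymes of that route had changes of -0.41 (Uroc1), -0.37 (Amdhd1) and -0.34 (Ftcd) with adjusted p-values of 0.0814, 0.0547 and 0.0528. Tdo2 and Kmo, of tryptophan breakdown, had changes of -0.01 and -0.03. Hpd, of tyrosine breakdown, fell by 0.39 as 1 of 6 genes of its list, a call lost without any 1 of 4 arrays. Of 20 genes of glycine, serine and methionine metabolism, 15 of branched-chain amino acid breakdown and 17 of the urea cycle and aminotransferases 0 were called by limma. At an unadjusted p under 0.05, 8, 8 and 6 genes were lower and 2, 0 and 0 higher. Over all 22180 genes these counts were 1931 and 1780. The list medians were -0.14, -0.17 and -0.18. The last of these medians was -0.09 with replicate 2 of Adeno-Cre fasted left out and -0.07 with replicate 1 of Adeno-GFP fasted left out.

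**Figure D3:**
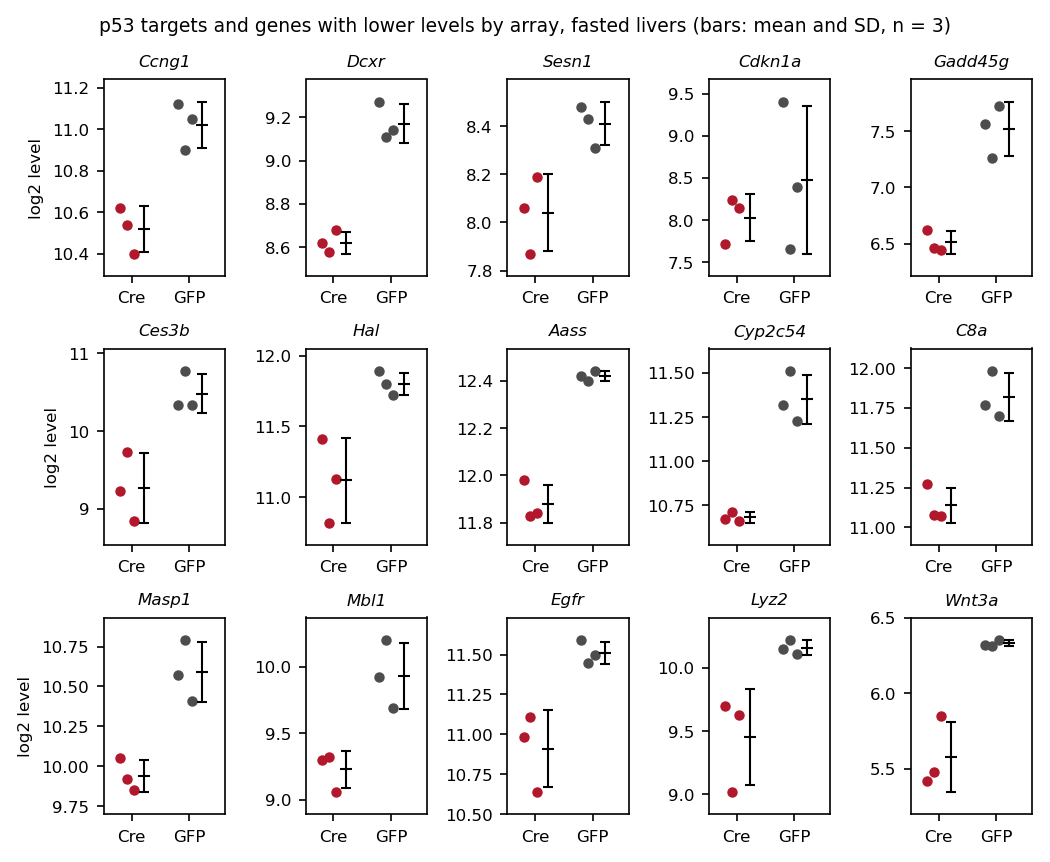
Deposited log2 levels of 15 p53 targets and genes with lower levels in each fasted liver (points in order of replicate number, Adeno-Cre left, Adeno-GFP right), with the mean and SD of 3 arrays as bars; each vertical axis has its own range. The groups do not overlap in any panel except that of Cdkn1a, whose Adeno-GFP levels run from 7.65 to 9.40.

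Most genes of the core programme of the fasted liver were not called, where 2.75% of all genes were. Of 28 measured genes of fatty acid oxidation and ketogenesis 0 were called by limma. At an unadjusted p under 0.05, 4 were higher and 2 lower, beside 1780 and 1931 of all 22180 genes. The list median was -0.02, which ran from -0.08 to 0.05 when each array was left out. Cpt1a, which admits fatty acids to the mitochondrion, had a change of -0.17 (adjusted p = 0.268), and the fasting hormone Fgf21 one of -0.14. Of 17 genes of gluconeogenesis 1 fell and 0 rose, with a median of -0.19. That gene was Slc37a4, which carries glucose 6-phosphate into the endoplasmic reticulum, at 9.30, 9.19 and 9.15 against 9.72, 9.73 and 9.52. It fell by 0.44 (adjusted p = 0.0277), a call lost without any 1 of 4 arrays. Pck1 had levels of 12.49, 12.36 and 12.22 in Adeno-Cre livers, all below 12.64, 12.67 and 12.68 in Adeno-GFP livers, with a change of -0.31 (SE 0.17, adjusted p = 0.38). G6pc (-0.26) and the coactivator Ppargc1a (-0.23) did not pass. Of 20 genes of lipogenesis 2 rose, Pgd of the pentose phosphate pathway (0.56, adjusted p = 0.00803) and the malic enzyme Me1 (0.56, adjusted p = 0.00847), both of which supply NADPH. Of 19 cholesterol genes 2 fell, Hsd17b7 (8.74, 8.71 and 8.69 against 9.20, 9.21 and 9.28; -0.52, adjusted p = 0.00214) and Msmo1 (-0.53, adjusted p = 0.0443). The call of Msmo1 was lost without any 1 of 11 arrays, and without Adeno-Cre fasted replicate 3 the list held 4 fallers.

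Enzymes of detoxification moved both ways, where 2.75% of all genes were called. Gstm3, a glutathione transferase of the mu class, had levels of 10.16, 10.05 and 10.44 in Adeno-Cre livers and 8.65, 8.14 and 8.47 in Adeno-GFP livers, 1.80 higher (SE 0.15, adjusted p = 0.000222), or 3.48-fold. Its close relatives Gstm1 (0.15), Gstm2 (0.28), Gstm4 (0.17) and Gstm6 (0.07) did not pass, and of 17 transferases 2 were called, the other being Mgst3 (0.46, adjusted p = 0.0453, lost without any 1 of 11 arrays). Transferase genes are alike in sequence, and hybridisation to a neighbour's RNA was not tested. Of 15 targets of NRF2, the regulator of the oxidative stress response, 4 rose and 0 fell with a median of 0.10, which ran from 0.05 to 0.16 when each array was left out. These were the quinone reductase Nqo1 (8.43, 8.57 and 8.61 against 8.10, 7.54 and 7.93; 0.68, adjusted p = 0.0184), Ugdh (0.48), Pgd and Me1, and 2 were called when replicate 2 of either injection was left out. Of the P450 enzymes, Cyp2c54 fell by 0.67 (10.67, 10.71 and 10.66 against 11.32, 11.51 and 11.23; adjusted p = 0.00847). Cyp2c55 rose by 1.57 in the probe set used and had 0.16 in the other, and that call was lost without any 1 of 4 arrays.

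The calls among immune genes differed from list to list, where 2.75% of all genes were called. Of 34 antiviral interferon genes 0 were called by limma, with 2 higher and 0 lower at an unadjusted p under 0.05 and a median of 0.12. With replicate 1 of Adeno-Cre removed this was 0.05, and with replicate 1 or 2 of Adeno-GFP removed 0.19 and -0.03, so its sign rests on 1 array. Of 14 interferon-induced GTPases 1 rose: Igtp had levels of 10.55, 10.40 and 10.23 after Adeno-Cre and 9.71, 9.27 and 9.76 after Adeno-GFP, 0.81 higher (adjusted p = 0.0219), a call lost without any 1 of 3 arrays. Among 20 chemokines, Cxcl10, which attracts T cells, was 9.29, 9.44 and 9.45 against 8.44, 7.91 and 8.51, 1.11 higher (adjusted p = 0.0215). Cxcl13, which attracts B cells, fell by 0.88 (6.06, 6.30 and 6.28 against 7.28, 7.40 and 6.59) and Ccl9 fell by 0.49. These 3 calls were lost without any 1 of 4, 3 and 4 arrays. The Adeno-Cre levels of Cxcl13 lie close to the array medians and are not shown to be above background. Saa3, an acute-phase serum amyloid, had levels of 8.78, 9.63 and 10.07 in Adeno-Cre livers and 7.26, 7.53 and 7.70 in Adeno-GFP livers, 1.99 higher (SE 0.31, adjusted p = 0.00382), also without each array in turn. Of the 26 acute-phase and metallothionein genes it was the 1 that rose, and 2 fell (Mbl1 and Mbl2). The groups did not overlap for 2 that were higher (9.96% of all genes) and 7 that were lower (10.9% of all genes). Saa2 did not pass, at 10.09, 6.53 and 7.91 against 7.26, 5.71 and 6.63 (adjusted p = 0.343).

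Of 19 growth factors, their receptors and Wnt ligands, 2 fell and 0 rose, beside 0.482% and 2.26% of all genes. The epidermal growth factor receptor Egfr, abundant in hepatocytes, had levels of 10.98, 11.11 and 10.64 in Adeno-Cre livers, against 11.59, 11.45 and 11.50 in Adeno-GFP livers, and fell by 0.60 (adjusted p = 0.0319), a call lost without any 1 of 5 arrays. Wnt3a fell by 0.75 (adjusted p = 0.0029), at 5.42, 5.48 and 5.85 against 6.32, 6.31 and 6.35, levels near or under the array medians that are not shown to be above background. The fetal liver gene Afp had a change of 0.30 (adjusted p = 0.415). Ly6d rose by 0.50 as 1 of 10 oncofetal genes, a call lost when replicate 2 of either injection was left out.

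Markers of other liver cells moved with the contrast in part, where 0.482% of all genes fell and 2.26% rose. The 17 pericentral hepatocyte markers had a median of -0.25, and 3 fell: Gulo (-0.52), Slc1a2 (-0.42) and Rgn (-0.30), with 0 called when replicate 1 of either injection was left out. Glul, which marks the innermost pericentral cells, had a change of -0.25 (adjusted p = 0.11). The 13 periportal markers had a median of -0.16 (-0.09 without Adeno-Cre fasted replicate 2), with 5 lower and 2 higher at an unadjusted p under 0.05. Of these Hal fell and Cdh1 rose (0.39, adjusted p = 0.0424), a call lost on removing any 1 of 10 arrays. The 6 cholangiocyte markers had a median of -0.25 and 0 were called by limma, with 2 lower at an unadjusted p under 0.05. Kupffer cell markers had mean levels of 7.59 to 8.04 in Adeno-Cre livers and 7.98 to 8.40 in Adeno-GFP livers. Their median was -0.30, which ran from -0.42 to -0.14 when each array was left out, and 2 of the 16 changes lay above 0. At an unadjusted p under 0.05, 2 were lower and 0 higher. Lyz2 fell by 0.71 (adjusted p = 0.027, lost on removing any 1 of 3 arrays), and Marco (-0.76), Vsig4 (-0.78), Timd4 (-0.39) and Clec4f (-0.52) did not pass. The 17 sinusoidal endothelial markers had a median of -0.05, and 0 passed at an adjusted or unadjusted p of 0.05. Stellate cell markers had mean levels of 7.78 to 8.01 in Adeno-Cre livers and 8.09 to 8.18 in Adeno-GFP livers, and 0 of 19 were called, with 0 changes above 0 and 8 lower at an unadjusted p under 0.05. T cell markers had mean levels of 5.95 to 6.06 in Adeno-Cre livers and 6.02 to 6.08 in Adeno-GFP livers, below the array medians, and 0 of 12 passed at an adjusted or unadjusted p of 0.05. Of 11 markers of natural killer and cytotoxic cells Gzma rose by 0.65 (6.18, 6.21 and 6.23 against 5.56, 5.45 and 5.67), a call lost on removing any 1 of 6 arrays. These levels lie under the array medians and are not shown to be above background. The median of that list was -0.12, with 2 lower and 1 higher at an unadjusted p under 0.05. The part that cell composition has in the other results was not tested.

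In fed livers, which share no arrays with the fasted ones, the same contrast gave 239 rises (1.08%) and 92 falls (0.415%). Of the 203 division genes 83 rose and 1 fell in fed livers, with a median of 0.58, beside 0.85 in fasted livers. The mean level of these genes was 8.02, 7.94 and 8.01 in Adeno-Cre fed livers and 7.34, 7.52 and 7.15 in Adeno-GFP fed livers. For either injection every fed array thus stood above every fasted one, a difference that was not tested here. When the fasted and fed differences were compared directly, 0 division genes passed after adjustment, and at an unadjusted p under 0.05 the difference was larger in fasted livers for 48 and larger in fed livers for 3 of 203, beside 832 and 844 of all 22180 genes. A positive fed change was found for 479 of the 502 fasted risers and a negative one for 89 of the 107 fallers.

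**Figure D4:**
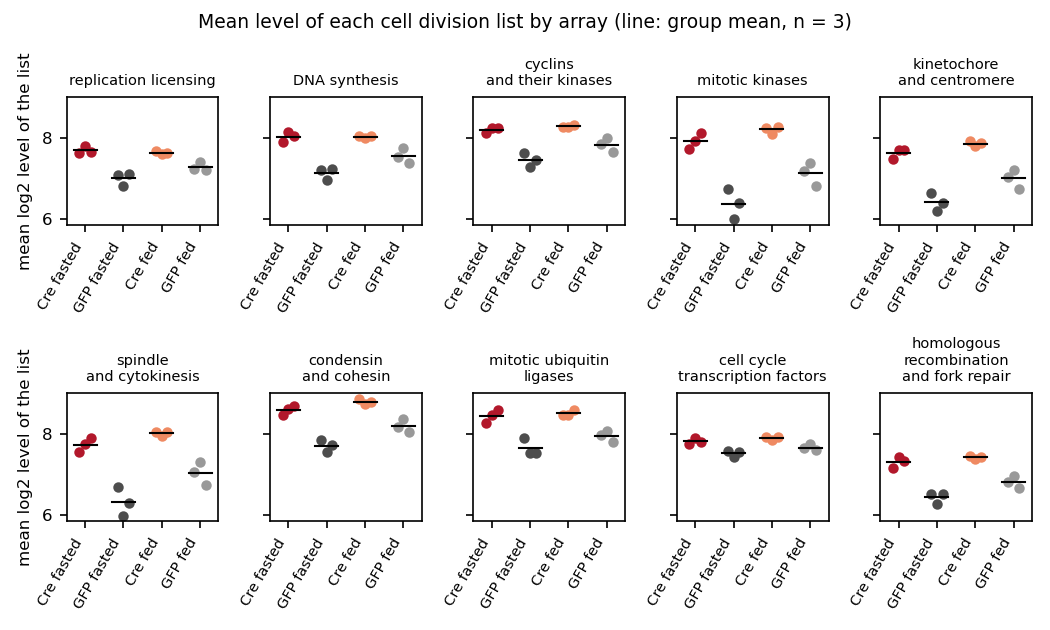
Mean deposited log2 level of each division list on each of the 12 arrays (points; line, mean of 3 arrays), with Adeno-Cre left of Adeno-GFP in fasted and then in fed livers. The Adeno-GFP fasted group has the lowest mean in all 10 panels, and the list of transcription factors is the flattest.

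Only 1 of 22180 genes (0.00451%) differed between the diets in its Adeno-Cre change after adjustment. At an unadjusted p under 0.05, 1676 (7.56%) did so. With 1 array left out, 0 genes passed after adjustment unless that array was replicate 3 of Adeno-GFP fasted or of Adeno-GFP fed. Slc44a3, a choline transporter-like protein, had levels of 8.27, 8.40 and 8.49 in Adeno-Cre fasted livers, against 7.51, 7.41 and 7.57 in Adeno-GFP fasted livers, 0.89 higher (SE 0.09, adjusted p = 0.000396). Its change in fed livers was -0.17, and the difference between the diets was 1.07 (SE 0.13, adjusted p = 0.0481). Gstm3 (1.22) and Gadd45g (-1.11) had differences of like size with an adjusted p of 0.238. The antiviral interferon genes, whose fasted median of 0.12 turned to -0.03 on removal of 1 array, had a median of 1.07 in fed livers. Their mean level was 9.62, 8.88 and 8.87 in Adeno-Cre fed livers and 7.89, 8.18 and 7.97 in Adeno-GFP fed livers. Replicate 1 of Adeno-Cre fed thus stood well above the other arrays and adds to the fed change. The genes were read on the same arrays, so counts of them are not independent. Of these 34 genes 22 rose in fed and 0 in fasted livers, and for 30 the change was smaller in fasted livers at an unadjusted p under 0.05, beside 844 of all genes, but 0 passed after adjustment. Ifit1 had a change of -0.31 in fasted and 2.01 in fed livers (difference adjusted p = 0.404).

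**Figure D5:**
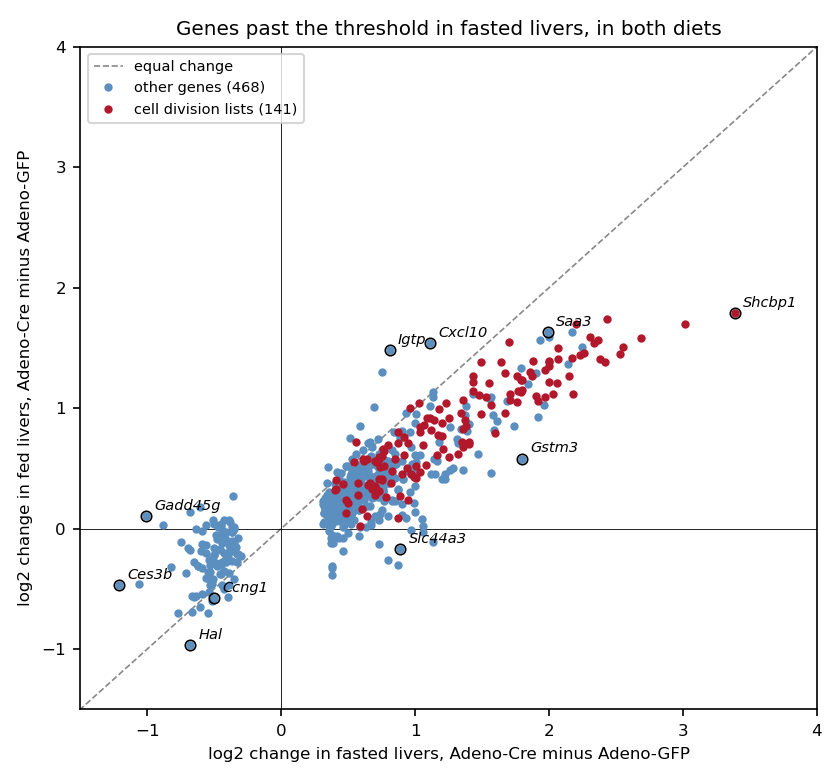
Log2 change, Adeno-Cre minus Adeno-GFP, in fasted livers (horizontal) and fed livers (vertical) of the 609 genes called in fasted livers, with 141 division genes in red and named genes circled; the dashed line marks equal changes. Most risers lie above 0 in both diets and below the dashed line, and since all genes were chosen for their fasted change, a smaller fed change is partly given by that choice.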

How the data were processed

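The authors deposited log2 values summarised for each probe set with RMA, per the submitters' processing notes. Neither the software behind it nor an annotation build is given in the sources used. RMA equalises the distributions of the arrays, so a general shift of all genes would be removed, and it compresses changes of dim probe sets. No detection call was given, so a level close to or under an array's median may be background. Of 41345 probe sets, 23521 name 1 gene in the platform annotation, 1814 name several and 16010 are unnamed; a gene was represented by its brightest probe set, which left 22180 genes.

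All 12 arrays were fitted with a mean per group in limma 3.58.1 (R 4.3.3) with eBayes, with Benjamini-Hochberg adjustment over the 22180 genes, contrast by contrast, and 0.05 as the threshold. The fit was tested on simulated data. Nothing in the labels pairs mice across groups: same-numbered fasted arrays correlated at -0.091, 0.112 and 0.053 in their deviations. The p-values test a difference of means against a spread between mice that was estimated over all groups and moderated across genes. The number of mice, 3 per group, limits the precision. Groups, lists (55) and genes were chosen with earlier results of these data known. Genes were named by a rule: the 20 largest rises and falls with groups that do not overlap, without predicted genes; the 6 smallest p, the extremes and the brightest member of each list, and all members of lists with 3 or fewer calls; and a fixed set. Other genes in the text, most of them list members, were chosen after their values were seen. Promoters are RefSeq's on GRCm38.p6, 1 per gene, the first listed. Alternatives left out dim genes, normalised by quantiles again, added a replicate block, fitted the fasted groups alone, used a trended and robust prior, averaged or separated the probe sets, and left out each array.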

Additional observations from a re-analysis of the deposited data

Results flagged for a closer look

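The Adeno-Cre change of Slc44a3 in fasted livers exceeded that in fed livers by 1.07 on the log2 scale (SE 0.13), and the limma test of that difference gave an adjusted p of 0.0481. The gene was 0.89 higher after Adeno-Cre in fasted livers and had a change of -0.17 in fed livers. It alone, of 22180 genes, passed the threshold in that test. The call was lost on leaving out any 1 array other than replicate 3 of Adeno-GFP fasted or of Adeno-GFP fed. It was also lost after quantile normalisation, with the replicate block and over all probe sets.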

How the results depend on the processing

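Against 502 rises and 107 falls, the fit of the fasted groups alone, with fewer arrays, gave 292 and 28. Leaving out dim genes, which leaves fewer to adjust over, gave 720 and 233, and the trended and robust prior 713 and 226. Quantile normalisation gave 454 and 142. Leaving out each array in turn gave 304 to 546 rises, 51 to 254 falls and 124 to 139 division genes that rose. The replicate block gave 434 rises, 97 falls and 132 division genes; the replicate numbers share only a number, so this fit pairs nothing. Genes past the test between diets numbered 0 after quantile normalisation, 0 with the replicate block, 0 over all probe sets and 0 to 1 without each array. No named gene that was called changed direction under any alternative, and 92 of 133 named genes that were called kept their calls without each array. Changes of genes with an Adeno-GFP or Adeno-Cre mean under the array medians have an uncertain size, which holds for 121 of the rises and 38 of the falls. Signal over background was not given.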

Other observations

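Several rising genes off the lists were chosen after their values were seen. Serpinb8, an intracellular protease inhibitor, had levels of 7.64, 8.08 and 8.54 in Adeno-Cre fasted livers and 6.66, 5.79 and 5.83 in Adeno-GFP fasted livers, 2.00 higher (SE 0.28, limma adjusted p = 0.00198). Zdhhc2, a palmitoyl transferase, had levels of 7.90, 8.16 and 8.22 after Adeno-Cre, against 6.34, 6.19 and 6.40 after Adeno-GFP, 1.79 higher (adjusted p = 0.00129). The Adeno-GFP mean of Serpinb8 lies under the array medians, and the Adeno-GFP levels of Zdhhc2 lie close to them. Neither is shown to be above background, so the sizes of both changes are uncertain. Lgals1 (galectin 1) rose by 1.26 and the lipoprotein lipase gene Lpl, low in the adult mouse liver, by 0.74. Slc25a4, the ADP and ATP carrier of heart and muscle mitochondria, was 7.78, 7.93 and 7.79 in Adeno-Cre fasted livers and 6.95, 6.74 and 6.95 in Adeno-GFP fasted livers, 0.96 higher (SE 0.08, adjusted p = 0.000222).

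Ribosome biogenesis is a programme that accompanies growth. Of 36 measured genes 2 rose in the limma fit, beside 2.26% of all genes, and 0 fell. The risers were the small nucleolar ribonucleoproteins Nop58 (0.49, adjusted p = 0.00779) and Dkc1 (0.39, adjusted p = 0.0221, lost on removing any 1 of 3 arrays). A positive change was found for 28 of the 36, beside 9228 of all 22180 genes, and the median was 0.13. At an unadjusted p under 0.05, 9 were higher and 0 lower. The groups did not overlap for 10 that were higher (9.96% of all genes) and 0 that were lower (10.9% of all genes). Of 16 clock genes, 14 targets of growth hormone and 18 genes of ATF4 and endoplasmic reticulum stress 0 were called by limma. At an unadjusted p under 0.05, 3, 1 and 0 of them were lower and 0 in each list higher, beside 1931 lower and 1780 higher of all 22180 genes.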
